A study of Mus musculus with 12 samples.

Results

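The J segments of the T cell receptor alpha chain (TRAJ) lie one after another on mouse chromosome 14. The highest number stands at the 5′ end, toward the V segments (TRAV), and the lowest at the 3′ end, toward the constant region. The segments described were those named as best J hit, with a TRAV best hit, in productive alpha clonotypes (CDR3 covered, in frame and without a stop codon), leaving out TRAJ18 and TRAJ45. The rule found 42 TRAJ segments among the 143 TRAV and TRAJ segments with productive reads in the series. Of these, 41 had reads in all 12 libraries and were tested, and TRAJ41 was seen as 1 clonotype of 1 read in 1 library. From TRAJ58 (chr14:54157280-54157342) to TRAJ2 (chr14:54217836-54217901) they cover 60.6 kb of the plus strand (coordinates from the RefSeq gene table of GRCm38.p6, the assembly called mm10).

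The libraries came from sorted thymocytes. The mice were wild type (WT) or carried the label Chrna9 KO, for a knockout of the gene of the alpha 9 nicotinic acetylcholine receptor subunit, with 3 mice of each genotype (2 male pairs and 1 female pair) and no treatment. CD4 single-positive (CD4SP) cells, at 1000000 per sample, and CD8 single-positive (CD8SP) cells, at 330000 per sample, were sorted by CD4 and CD8 alone, which gave 4 groups of 3 libraries. The age and strain of the mice and the allele behind the knockout are not given in the sources used here, and the expression of Chrna9 is not measured by receptor libraries. Libraries held 19847 to 33885 productive alpha reads in 10892 to 15509 clonotypes, and the segments described took 88.8% to 92.2% of those reads in CD4SP and 96.1% to 96.4% in CD8SP. TRAJ18, the J segment of invariant natural killer T cells, took 8.77% ± 1.14 (SD, n = 6) of the CD4SP reads and 1.82% ± 0.06 (SD, n = 6) of the CD8SP reads, and shares of all other segments are parts of the same total. A gate on CD4 and CD8 alone can also hold natural killer T cells, mucosal-associated invariant T (MAIT) cells and immature cells that carry 1 of the 2 markers.

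In the alpha locus a thymocyte can rearrange the same chromosome several times. The first joins use TRAV segments near the J cluster with 5′ TRAJ segments, and each later join cuts these out and uses TRAV segments farther 5′ with TRAJ segments farther 3′, until a receptor is positively selected. A TRAJ segment encodes the end of the CDR3, the loop that touches peptide and MHC, so lineage choice between MHC class II (CD4) and class I (CD8) can act on the residues it brings.

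The J-side letters of 15 segments are shown because what they encode was used to group the segments in the comparison of CD4SP with CD8SP cells. Each is the consensus read back from the last base of the CDR3, 5′ to 3′, over the distinct CDR3 nucleotide sequences of that segment, with capitals where at least 90% and lower case where at least 50% of the sequences had the base. It describes these libraries and is not a germline record. Positions are those of the whole J segment on the plus strand. The first set holds the 7 segments whose consensus has a codon for an acidic residue, aspartate or glutamate, read in the frame of the CDR3.
TRAJ48 (chr14:54169808-54169868): aactatGGAAATGAGAAAATAACTTTT
TRAJ47 (chr14:54171802-54171856): ggactATGCAAACAAGATGATCTTT
TRAJ38 (chr14:54180574-54180635): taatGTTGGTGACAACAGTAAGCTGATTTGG
TRAJ33 (chr14:54185358-54185414): ggataGCAACTATCAGTTGATCTGG
TRAJ30 (chr14:54189866-54189924): gacaCAAATGCTTACAAAGTCATCTTT
TRAJ11 (chr14:54207139-54207197): gactCGGGATACAACAAACTCACTTTT
TRAJ7 (chr14:54211470-54211528): gactACAGCAACAACAGACTTACTTTG
In TRAJ47, TRAJ33, TRAJ30, TRAJ11 and TRAJ7 the acidic codon is the first whole codon (gac or gat, after a lone g in TRAJ47 and TRAJ33), at the edge that is trimmed during joining. In TRAJ48 (GAG) and TRAJ38 (GAC) it lies farther in. The second set holds the 6 segments with the highest ratio of CD4SP to CD8SP usage, and was picked by that ratio. All 6 have a codon for a basic residue, lysine or arginine, and none for an acidic one. This was also true of 28 of the 41 tested segments, and 8 of those 28 were lower in CD4SP.
TRAJ44 (chr14:54173690-54173750): tacTGGCAGTGGTGGAAAACTCACTTTG
TRAJ42 (chr14:54175773-54175836): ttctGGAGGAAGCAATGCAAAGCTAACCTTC
TRAJ37 (chr14:54181518-54181577): aacAGGCAATACCGGAAAACTCATCTTT
TRAJ31 (chr14:54187895-54187951): atagcAATAACAGAATCTTCTTT
TRAJ27 (chr14:54192303-54192361): acacCAATACAGGCAAATTAACCTTT
TRAJ6 (chr14:54212688-54212749): cctcaGGAGGAAACTACAAACCTACGTTT
The third set holds the 2 most used, over all libraries together, of the 6 segments whose consensus has neither an acidic nor a basic codon.
TRAJ26 (chr14:54194490-54194549): taacTATGCCCAGGGATTAACCTTC
TRAJ22 (chr14:54197248-54197307): atctTCTGGCAGCTGGCAACTCATCTTT

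Usage differed 22.3-fold between the most and the least used of the 41 segments, with a median share of 1.78% of productive alpha reads over the 12 libraries. TRAJ22 was the most used over the 12 libraries, at 7.77% ± 1.65 (SD, n = 12). TRAJ31 took 5.84% ± 1.17, TRAJ23 took 5.43% ± 0.35, TRAJ26 took 4.61% ± 1.38 and TRAJ12 took 4.58% ± 0.22 (SD, n = 12 each). TRAJ30 followed at 4.54% ± 1.51 (SD, n = 12). The spread of TRAJ26 and TRAJ30 holds the difference between CD4SP and CD8SP given below, while TRAJ12 varied little. The order of TRAJ26, TRAJ12 and TRAJ30 therefore describes the pooled libraries and not each lineage. The same holds for TRAJ22 and TRAJ31, since every CD4SP library had a larger share of TRAJ31 than of TRAJ22. At the low end stood TRAJ35 with 0.35% ± 0.08, TRAJ28 with 0.49% ± 0.08, TRAJ5 with 0.53% ± 0.05, TRAJ38 with 0.58% ± 0.14 and TRAJ58 with 0.61% ± 0.11 (SD, n = 12 each), and neighbours in this order overlapped.

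Heavily and sparsely used segments stood side by side along the cluster. TRAJ28 lies 34.4 kb from TRAJ58, and TRAJ27, at 35.0 kb, took 3.73% of reads, while TRAJ24 took 0.99% next to TRAJ23. Over the 40 pairs of neighbouring segments, the correlation of usage was 0.081 (a description across segments that share libraries). The 12 segments from TRAJ58 to TRAJ42 held 13.9% of productive alpha reads, the 17 from TRAJ41 to TRAJ22 held 48.5% and the 13 from TRAJ21 to TRAJ2 held 31.0%. Those 3 stretches are called 5′, middle and 3′ in what follows. The numbering of the gene table has 60 TRAJ entries, and 16 of them had no read, productive or not. Of these 16, 9 are annotated as pseudogenes (TRAJ61, TRAJ60, TRAJ55, TRAJ54, TRAJ51, TRAJ36, TRAJ14, TRAJ8 and TRAJ1) and 7 as J segments (TRAJ59, TRAJ46, TRAJ29, TRAJ25, TRAJ20, TRAJ19 and TRAJ3).

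**Figure D1:**
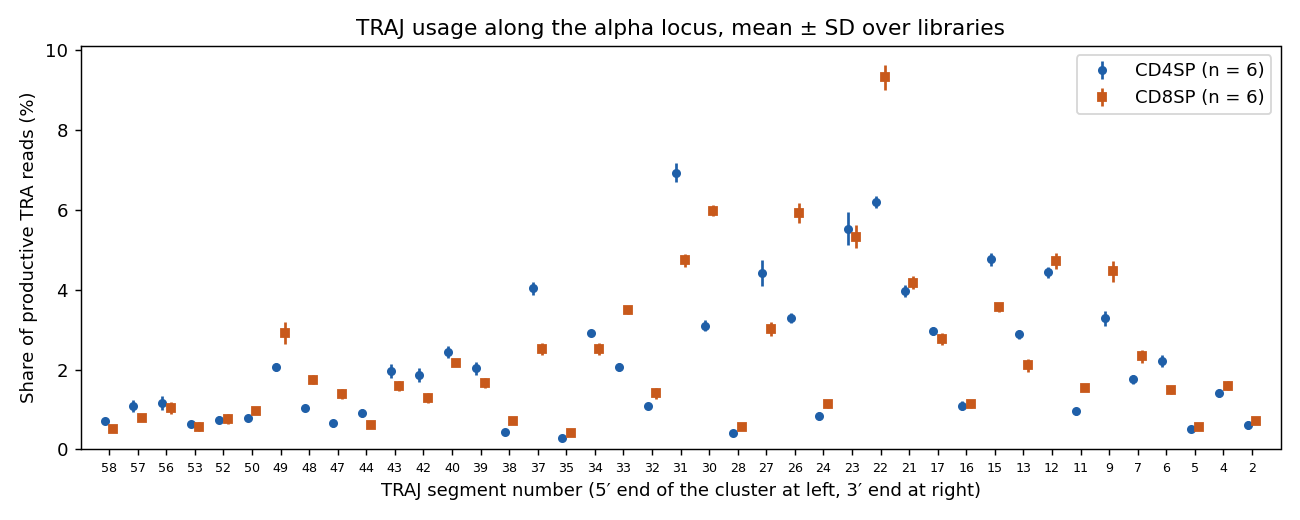
Share of productive alpha reads (%, y axis) of the 41 tested TRAJ segments in locus order (x axis), with points for the mean and bars for the SD over 6 CD4SP and 6 CD8SP libraries. TRAJ22 and TRAJ30 stand higher in CD8SP, TRAJ31 and TRAJ37 higher in CD4SP, and high and low segments alternate along the cluster.

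Usage followed that of nonproductive joins, which encode no receptor and are carried along by a cell selected through its other allele. Across the 41 segments the Spearman correlation between the productive share and the share of out-of-frame or stop reads was 0.869 (a description, with both shares from the same libraries). TRAJ32 departed most, with 5.72% of nonproductive and 1.25% of productive reads. At the other end, TRAJ30 had 2.64% of nonproductive against 4.54% of productive reads and TRAJ22 had 4.70% against 7.77%. Between usage and mean CDR3 length the Spearman correlation over the 41 segments was -0.68, also a description. Mean CDR3 length ran from 36.8 bases with TRAJ31 to 45.6 bases with TRAJ2.

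The trimmed end of the segments also varied. The mean number of bases lost from the J end per clonotype ran from 0.094 with TRAJ24 to 4.87 with TRAJ39, with a median of 2.67 over the 41. TRAJ24 stood apart, since 97.6% of its clonotypes kept the whole J end and had 6.01 inserted bases on average, against a median of 2.08 inserted bases over the segments. Averaged over the reads of all members, 2.56 ± 0.03 bases were lost in CD4SP and 2.39 ± 0.03 in CD8SP (SD, n = 6 each). Of the reads, 29.3% ± 0.6 against 33.3% ± 0.3 kept the whole J end, and neither value overlapped between the lineages. Both values average over segments that the lineages used in different proportions. Bases lost within a segment were not compared between lineages. After TRAJ24, TRAJ47 lost the fewest, with 0.958 bases lost, 3.09 inserted and 68.2% of clonotypes intact. These values depend on the reference sequence against which the authors' software aligned each segment, and a difference between that reference and the mice was not tested.

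CD4SP and CD8SP thymocytes used TRAJ segments differently at most positions of the cluster. Of the 41 segments, 34 differed (15 higher and 19 lower in CD4SP, edgeR's quasi-likelihood test with the assumed mouse as a block, Benjamini-Hochberg adjusted over 125 segments), where 78.4% of all TRAV and TRAJ segments tested did (35.2% higher and 43.2% lower). The share of TRAJ segments called was therefore near that of all segments. The 6 CD4SP and 6 CD8SP libraries did not overlap for 26 of the 41 segments, against 61.6% of all segments tested. The median log2 fold change was -0.07 for the TRAJ segments and -0.09 over all 125 segments. The invariant natural killer T cell chain, TRAV11 with TRAJ18 and a CDR3 of 15 residues, took 6.71% ± 1.09 of the CD4SP and 0.065% ± 0.018 of the CD8SP reads (SD, n = 6 each). With the reads of the members alone as library size, 34 segments were again called, 18 higher and 16 lower. Mice are counted by taking CD4SP and CD8SP libraries of the same genotype and number as 1 mouse, which the labels do not state and the data did not bear out in WT. In reads from bulk samples, fewer cells with a segment and less receptor RNA per cell cannot be told apart.

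Among segments with a mean share of at least 0.5%, TRAJ37 had the largest excess in CD4SP. Its share ran from 3.82% to 4.30% (median 4.01%) in CD4SP and from 2.30% to 2.63% (median 2.58%) in CD8SP, without overlap (log2 fold change 0.68 ± 0.04 SE, adjusted p = 4.0e-15, higher in 6 of 6 mice). TRAJ31 ran from 6.69% to 7.33% (median 6.88%) in CD4SP and from 4.59% to 4.96% (median 4.68%) in CD8SP, so the 2 lineages again did not overlap (0.55 ± 0.03, adjusted p = 6.9e-15). TRAJ27 ran from 4.08% to 4.98% (median 4.37%) against 2.74% to 3.22% (median 3.07%), a log2 fold change of 0.55 ± 0.05 SE. All 3 belong to the middle of the cluster. TRAJ6, near the 3′ end, was higher by 0.58 ± 0.05 SE, and from the 5′ end TRAJ44 was higher by 0.54 ± 0.08, TRAJ42 by 0.53 ± 0.06, TRAJ58 by 0.46 ± 0.09 and TRAJ57 by 0.44 ± 0.08. TRAJ13 (0.45 ± 0.05) and TRAJ15 (0.42 ± 0.04) completed the 10 largest.

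The largest deficit in CD4SP was that of TRAJ47. It ran from 0.53% to 0.75% (median 0.66%) in CD4SP and from 1.29% to 1.64% (median 1.35%) in CD8SP, without overlap (log2 fold change -1.10 ± 0.07 SE, adjusted p = 4.0e-14, lower in 6 of 6 mice). TRAJ30 ran from 2.95% to 3.32% (median 3.07%) against 5.83% to 6.13% (median 6.01%), the smallest p among the members (-0.95 ± 0.04 SE, adjusted p = 1.9e-19). TRAJ26 ran from 3.17% to 3.50% (median 3.31%) against 5.61% to 6.29% (median 5.93%), with a log2 fold change of -0.84 ± 0.04 SE. TRAJ22, the most used segment over all libraries together, ran from 5.99% to 6.45% (median 6.18%) against 8.92% to 9.64% (median 9.40%). Its log2 fold change was -0.59 ± 0.03 SE. In all 4, every CD8SP library stood above every CD4SP library. TRAJ48 (-0.76 ± 0.06), TRAJ33 (-0.76 ± 0.04), TRAJ11 (-0.69 ± 0.07), TRAJ38 (-0.68 ± 0.09), TRAJ49 (-0.50 ± 0.05) and TRAJ9 (-0.44 ± 0.04) were the other 6 of the 10 largest at that share (log2 fold change ± SE). The 7 segments not called were TRAJ56, TRAJ53, TRAJ52, TRAJ23, TRAJ21, TRAJ16 and TRAJ5.

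Along the cluster, segments higher and lower in CD4SP stood side by side in every stretch, while the sums over the stretches differed a little. In the 5′ stretch 5 segments were higher and 4 lower in CD4SP (median log2 fold change 0.16), in the middle 6 were higher and 9 lower (median -0.40), and in the 3′ stretch 4 were higher and 6 lower (median -0.09). The middle stretch held 50.1% to 51.5% (median 50.8%) of the members' reads in CD4SP and 52.0% to 54.2% (median 52.8%) in CD8SP, without overlap, a difference of -2.01 ± 1.02 percentage points (SD) and lower in 6 of 6 mice. The 3′ stretch held 32.8% to 35.8% (median 34.1%) against 31.9% to 32.6% (median 32.6%), also without overlap, a difference of 1.75 ± 0.98 points and higher in 6 of 6. The 5′ stretch overlapped, with 15.02% ± 0.62 in CD4SP and 14.76% ± 0.85 in CD8SP (SD, n = 6 each). No test was planned for these sums. Neighbouring segments had the same sign in 21 of 40 pairs, and the correlation of their log2 fold changes was -0.02. Across the 41 segments the Spearman correlation of the log2 fold change with TRAJ number was 0.126. These are descriptions across segments that share libraries. The mean TRAJ number of a library's reads ran from 26.2 to 27.0 (median 26.7) in CD4SP and from 26.0 to 26.6 (median 26.5) in CD8SP, so the lineages overlapped. CD4SP minus CD8SP was 0.28 ± 0.27 (SD, n = 6 mice), higher in 5 of 6 mice, and with TRAJ18 and TRAJ45 counted it was -0.56 ± 0.28 (SD, n = 6).

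Grouping the segments by charged codons on the J side did separate them in part. All 7 segments with an acidic codon were lower in CD4SP, by a log2 fold change between -1.10 and -0.41 with a median of -0.76. All of these but TRAJ33 also have a basic codon, so the class is not one of net charge. Of the 6 segments with neither charge (TRAJ49, TRAJ35, TRAJ26, TRAJ22, TRAJ21 and TRAJ5), 4 were lower, 0 were higher and 2 were not called, with a median of -0.54. Of the 28 with a basic codon and no acidic one, 15 were higher, 8 were lower and 5 were not called, with a median of 0.17. The classes were drawn up with earlier results of these data known, so the counts describe them and test nothing. The 15 segments higher in CD4SP thus all belonged to the basic class. The 8 lower ones of that class were TRAJ50, TRAJ32, TRAJ28, TRAJ24, TRAJ12, TRAJ9, TRAJ4 and TRAJ2, between -0.44 and -0.09. Of these, TRAJ12, TRAJ4 and TRAJ2 were not called with TMM factors, DESeq2 or each clonotype counted once. With TMM factors in place of plain library sizes the basic class held 18 higher and 5 lower segments, and the other classes kept their counts.

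**Figure D2:**
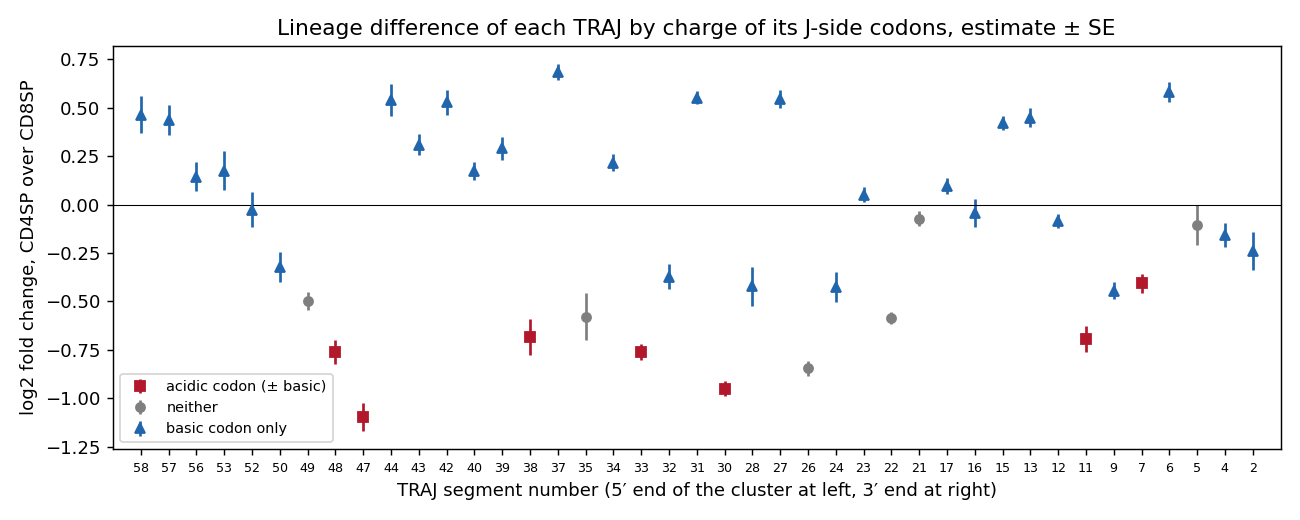
Log2 fold change of CD4SP over CD8SP (y axis, bars for the SE) of each of the 41 segments in locus order (x axis). Marks show an acidic codon on the J side (with or without a basic one), a basic codon only, or neither. The 7 segments with an acidic codon all lie below 0, between -1.10 and -0.41, wherever they stand in the cluster.

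Joining trims the J end, so cells that use the same segment can keep or lose its first codon. This allowed a comparison within a segment, which does not depend on how often the segment is used. A read kept the codon if its CDR3 had the encoded residue at that place. In TRAJ30 the codon was kept in 49.7% to 54.4% (median 51.0%) of reads in CD4SP and in 69.7% to 74.9% (median 70.4%) in CD8SP. Every CD8SP library stood above every CD4SP library, and the difference of -19.5 ± 1.7 percentage points (SD, n = 6 mice) had an adjusted p of 3.4e-35 (edgeR's quasi-likelihood test with the segment's reads as offset, adjusted over 43 segments). In TRAJ33 the range was 45.4% to 52.8% (median 47.5%) in CD4SP against 63.4% to 73.1% (median 67.7%) in CD8SP, a difference of -19.3 ± 4.8 points (adjusted p = 4.1e-24). In TRAJ11 it was 52.0% to 60.3% (median 54.8%) against 75.4% to 80.5% (median 77.1%), a difference of -22.3 ± 4.6 points (adjusted p = 3.5e-16).

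TRAJ47 showed the same order, with 43.6% to 62.5% (median 59.9%) in CD4SP and 72.9% to 80.4% (median 77.7%) in CD8SP, again without overlap (-20.5 ± 5.3 points, adjusted p = 2.5e-10). The difference was smallest for TRAJ7, with 57.0% to 62.5% (median 60.8%) against 60.3% to 68.9% (median 65.4%), where the lineages overlapped (-5.16 ± 4.0 points, adjusted p = 0.015). All 5 segments with an acidic first codon thus kept it less in CD4SP, and each did so in 6 of 6 mice. Over all 43 segments with a consensus, 41.9% were called (14% kept their first codon more and 27.9% less in CD4SP). Of the 36 other members, 5 kept the first codon more, 6 kept it less and 25 were not called, with a median difference of -0.36 points. TRAJ13 had the largest rise among them, from 67.9% ± 2.6 in CD8SP to 81.3% ± 1.4 in CD4SP (SD, n = 6 each). With each clonotype counted once, all 5 acidic codons were kept less in CD4SP, and of the 36 others 2 (TRAJ13 and TRAJ9) were kept more and 0 less. The 6 other decreases (TRAJ56, TRAJ42, TRAJ37, TRAJ22, TRAJ21 and TRAJ4) were then no longer called, but stayed about as large, at -2.59 to -7.21 points in clonotypes against -2.86 to -8.47 in reads. The measure was added after the charge pattern had been seen, and its p values need not measure the spread between mice alone.

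**Figure D3:**
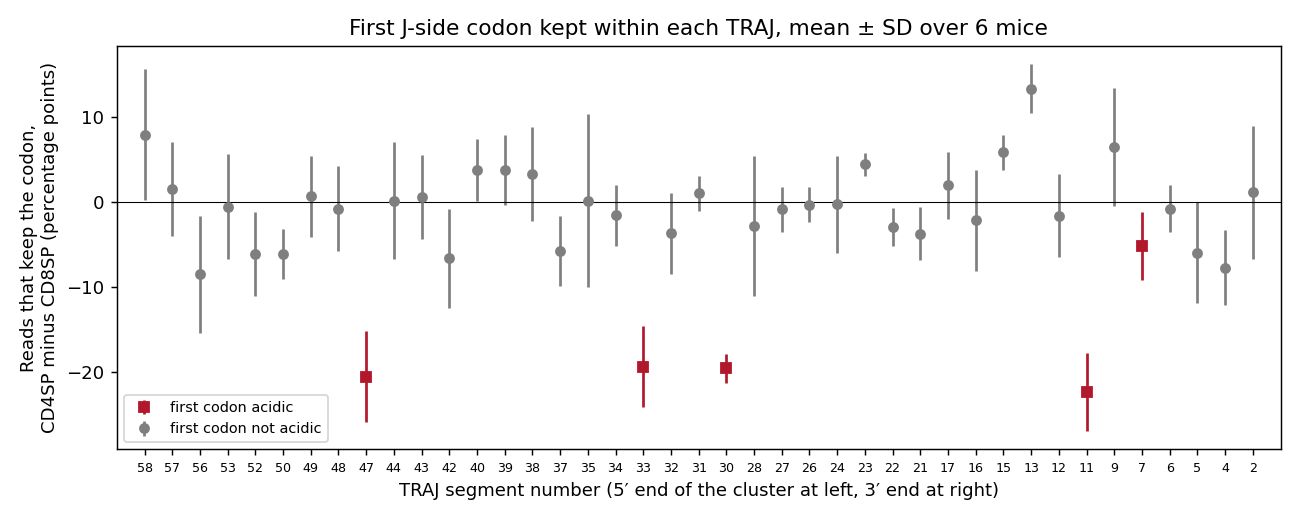
Difference in the share of reads that keep the first J-side codon (CD4SP minus CD8SP, percentage points, y axis) for each segment in locus order (x axis), with bars for the SD over 6 mice. TRAJ47, TRAJ33, TRAJ30 and TRAJ11, whose first codon is acidic, stand about 20 points below 0 at -20.5, -19.3, -19.5 and -22.3.

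TRAJ33 is also the J segment of the invariant alpha chain of MAIT cells, which pair it with TRAV1. TRAV1 to TRAJ33 joins numbered 3 to 8 reads per CD4SP library and 8 to 15 per CD8SP library, out of 423 to 628 and 847 to 1150 TRAJ33 reads. Nearly all TRAJ33 reads of both lineages were thus joined to other TRAV segments.

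By zone, the pairing of TRAV with TRAJ followed the order of the locus. TRAV segments were grouped into zones. Proximal were TRAV17 to TRAV21 (350 to 281 kb from TRAJ58, 7722 reads) and central were TRAV3 to TRAV16 (308773 reads). Distal were TRAV1 and TRAV2 (at the far 5′ end, 3216 reads). TRAV23, nearer at 180 kb, had 3 reads and was placed in no zone. Of the proximal joins, 79.8% ± 3.7 used a 5′ TRAJ, 18.4% ± 3.3 a middle one and 1.73% ± 0.69 a 3′ one (SD, n = 12). Of the distal joins, 2.02% ± 1.29 used a 5′ TRAJ, 62.3% ± 5.0 a middle one and 35.7% ± 4.9 a 3′ one. Central joins lay between, at 13.4% ± 0.6, 52.6% ± 1.1 and 34.0% ± 1.2. The mean TRAJ number was 48.4 ± 1.03 for proximal joins, 26.0 ± 0.23 for central and 23.2 ± 0.96 for distal joins (SD, n = 12), and proximal exceeded distal by 22.3 to 27.6 in the 12 libraries.

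Seen from the J side, the share of a segment's reads joined to proximal TRAV fell steeply over the first few kilobases of the cluster. It was 33.9% at TRAJ58, 38.3% at TRAJ57 and 31.8% at TRAJ56, which lie within 1.98 kb. At TRAJ53, 5.36 kb from TRAJ58, it was 13.7%, at TRAJ49 it was 9.16%, and at TRAJ42 it was 4.11%. It was under 1% at 24 members: TRAJ33, every member 3′ of it, and TRAJ41 with its 1 read. The 20 segments from TRAJ30 to TRAJ2 had 375 proximal joins where 4720 would arise if V zone and J were joined independently, 12.6-fold fewer.

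Distal TRAV were missing from the opposite end. The 9 segments from TRAJ58 to TRAJ47 had 7 distal joins among 33639 reads, where independence gives 343, 48.9-fold fewer. Of these 9, 6 (TRAJ57, TRAJ56, TRAJ53, TRAJ52, TRAJ50 and TRAJ49) had 0 distal reads, and TRAJ58 itself had 4. The share joined to distal TRAV was highest at TRAJ24, at 2.65%, followed by TRAJ35 at 2.07% and TRAJ32 at 1.98%. The value of TRAJ35 rests on 25 reads, and 7 of 12 libraries were below expectation there, against 1 at TRAJ24 and 2 at TRAJ32. The share was 0.60% to 1.33% over the 10 segments from TRAJ16 to TRAJ4.

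**Figure D4:**
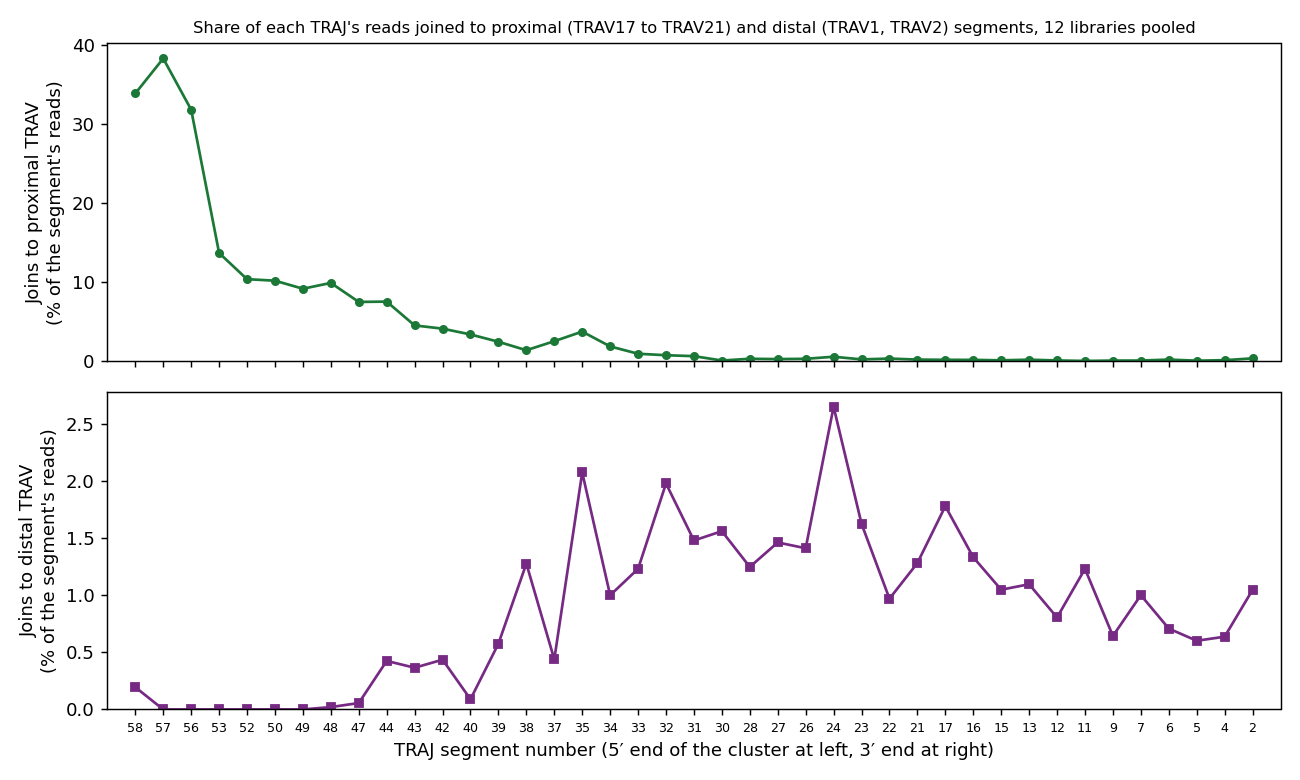
Share of each segment's reads (%, y axes, different scales) joined to proximal TRAV (upper panel) and to distal TRAV (lower panel), 12 libraries pooled, with segments in locus order (x axis). Proximal joins fall from 38.3% at TRAJ57 to under 1% from TRAJ33 on, and distal joins are at or near 0 from TRAJ57 to TRAJ47.

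Each join of a V zone with a TRAJ was tested against the reads that independent joining would give in the same library. Of 73 joins with at least 10 expected reads per library on average, 38 departed from independence, 12 above and 26 below, where 51.9% of the 77 joins tested did, TRAJ18 and TRAJ45 included, 15.6% above and 36.4% below (edgeR's quasi-likelihood test with the expected reads as offset, Benjamini-Hochberg adjusted). Proximal joins were above expectation at TRAJ49 (log2 ratio 1.97 ± 0.08 SE), TRAJ43 (0.91 ± 0.09), TRAJ42 (0.72 ± 0.20) and TRAJ40 (0.47 ± 0.11) and below at 16 segments. The call at TRAJ42 was lost without knockout replicate 2 (0.55, edgeR adjusted p = 0.086) and without WT replicate 2 (0.52, adjusted p = 0.050), and that at TRAJ40 without tied V hits (0.20, adjusted p = 0.11). The lowest ratios among the latter were those of TRAJ7 (-5.56 ± 0.41), TRAJ12 (-5.49 ± 0.26), TRAJ30 (-5.15 ± 0.29), TRAJ9 (-4.96 ± 0.27), TRAJ4 (-4.92 ± 0.52) and TRAJ15 (-4.81 ± 0.28). These rest on few reads, 5 to 14 for each over the 12 libraries against 122 to 371 expected. With each clonotype counted once, 55 joins could be tested, no distal one among them and 14 proximal ones against 23 in reads. Of these 55, 20 were below expectation (8 central and 12 proximal) and 0 above. A join that was no longer tested is not shown to be at expectation. Distal joins were above expectation at TRAJ23 (0.71 ± 0.14), TRAJ30 (0.70 ± 0.15) and TRAJ31 (0.53 ± 0.11). Central joins ran from -0.65 at TRAJ57, -0.55 at TRAJ58 and -0.50 at TRAJ56 to 0.04 at TRAJ9. They hold 96.6% of the members' reads, so by construction their log2 ratio could rise only a little above 0. The zones of a segment share its total, so a central deficit and a proximal or distal excess at the same segment are not separate observations.

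The filter at 10 expected reads left out the sparse 5′ segments, so the fit was repeated with a minimum of 3 after the data had been seen, where 61.4% of 114 joins were called, 21.9% above and 39.5% below. Proximal joins then exceeded expectation at 13 of 40 members and fell short at 25. The excess was 3.94 ± 0.06 at TRAJ57, 3.72 ± 0.06 at TRAJ58 and 3.70 ± 0.04 at TRAJ56 (log2 ratio ± SE), and it fell to 2.42 ± 0.13 at TRAJ53 and 2.06 ± 0.15 at TRAJ52. In the 12 libraries the observed number at TRAJ57 was 12.6 to 20.2 times the expected one, so no library stood near independence. Distal joins exceeded expectation at 6 of 27 members, with TRAJ32 (0.91 ± 0.30), TRAJ17 (0.85 ± 0.15) and TRAJ27 (0.59 ± 0.12) added, and fell short at 7, which lie between TRAJ37 and TRAJ48. The distal joins of TRAJ49 (7.50 expected reads per library) and TRAJ56 (3.03) met the minimum but had 0 reads in all 12 libraries, so they were left out of the fit.

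Single TRAV segments of the stretch nearest to the J cluster showed the same order in finer steps. Positions and joins could be set side by side for 53 of 99 TRAV segments, those with at least 10 reads in every library and under 5% of reads tied with a near-identical copy. The 25 of the last unlettered stretch, from TRAV4-2 at 738 kb from TRAJ58 to TRAV21/DV12 at 281 kb, went in mean TRAJ number from 24.6 ± 1.4 to 48.2 ± 1.5 (SD, n = 12). Between them lay TRAV10 at 29.4 ± 1.1, TRAV13-2 at 35.7 ± 1.6, TRAV6-7-DV9 at 41.7 ± 0.8 and TRAV14-3 at 44.3 ± 2.6. The Spearman correlation of the pooled mean TRAJ number with nearness to TRAJ58 was 0.989 over these 25 and 0.783 over all 53 (descriptions, with segments sharing libraries).

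Farther out than 738 kb the order was weaker or absent. The 11 segments with an N in their name, which belong to a copy of the central part, had pooled mean TRAJ numbers from 19.6 to 28.2, and the 11 with a D, from the other copy, from 19.1 (TRAV14D-3-DV8) to 30.1 (TRAV13D-3). The 6 unlettered segments farthest 5′, TRAV1 and TRAV2 included, had 22.1 to 24.1. Within the N copy the Spearman correlation with nearness was 0.66, with 23.6 to 28.2 at the 4 segments nearest to TRAJ58 and 19.6 to 21.7 at the other 7. Within the D copy it was -0.23, and over the 6 farthest segments 0.31 (descriptions over few segments). The lowest means belonged to segments of the D and N copies rather than to the most distal TRAV.

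**Figure D5:**
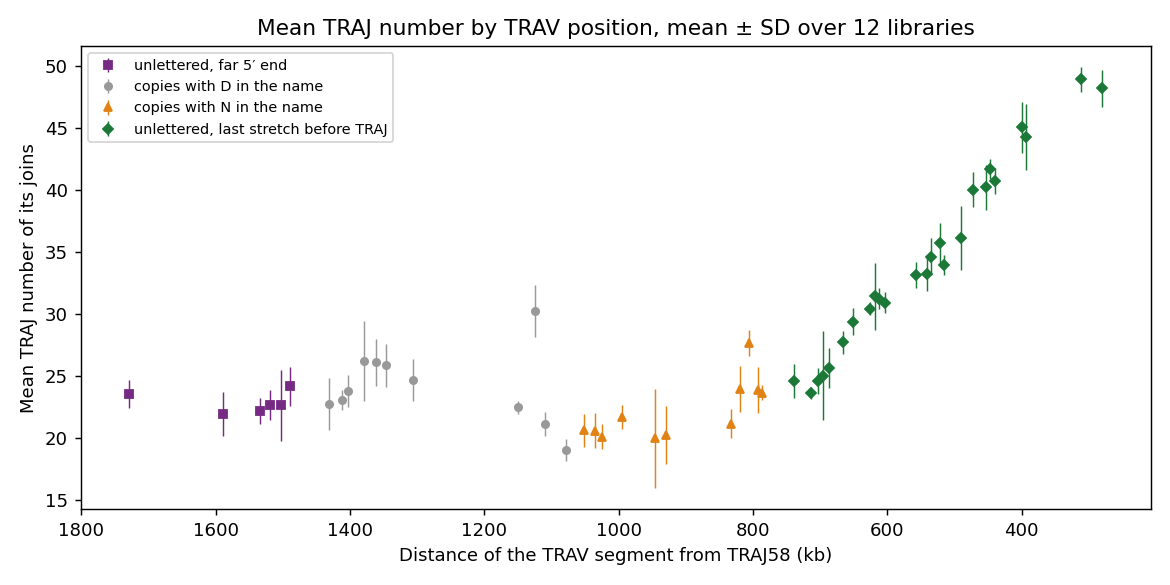
Mean TRAJ number of the joins of each of 53 TRAV segments (y axis, points for the mean and bars for the SD over 12 libraries) against its distance from TRAJ58 in kb (x axis, nearest at right). The 25 segments of the last stretch climb from 24.6 to 48.2, and those farther away lie between 19.0 and 30.2.

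The lineages differed in where TRAV segments joined, at the ends of the V array and within it. Proximal TRAV took 2.68% ± 0.21 of the reads in CD4SP and 2.23% ± 0.19 in CD8SP (SD, n = 6 each), with every CD4SP library above every CD8SP library. Distal TRAV took 0.71% ± 0.11 in CD4SP and 1.22% ± 0.12 in CD8SP, the opposite order and also without overlap. The mean TRAJ number of proximal joins ran from 48.5 to 50.0 (median 49.4) in CD4SP and from 46.8 to 48.1 (median 47.7) in CD8SP, higher in CD4SP by 1.69 ± 0.72 (SD) and in 6 of 6 mice. That of distal joins ran from 22.1 to 23.5 (median 22.3) in CD4SP and from 22.5 to 24.99 (median 23.9) in CD8SP, where the lineages overlapped but 6 of 6 mice were lower in CD4SP, with a difference of -1.31 ± 0.51 (SD). The gap between proximal and distal joins was therefore wider in CD4SP, at 26.7 ± 0.5 against 23.7 ± 0.8 (SD, n = 6 each). Of the distal segments, TRAV1 had a higher mean in CD4SP in 1 of 6 mice and TRAV2 in 4 of 6. Single central TRAV differed in both directions. TRAV13-2 had 36.9 ± 1.2 in CD4SP and 34.6 ± 1.1 in CD8SP (higher in 6 of 6), TRAV16N 26.8 ± 0.7 and 28.6 ± 0.4 (higher in 0 of 6). All central joins had 26.1 ± 0.27 and 25.9 ± 0.19, with overlap (SD, n = 6 each). No test was planned for these means.

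With usage taken into account, no join passed the test of a difference in pairing between the lineages. Of the 73 joins, 0 passed the test of CD4SP against CD8SP (edgeR's quasi-likelihood test; 8 had an unadjusted p under 0.05), where 1.3% of all joins did. The smallest p values belonged to the central join of TRAJ57 (log2 difference -0.20 ± 0.03 SE, adjusted p = 0.10), the distal join of TRAJ12 (1.25 ± 0.42, adjusted p = 0.15), the central join of TRAJ58 (-0.21 ± 0.04, adjusted p = 0.15), the distal join of TRAJ31 (-0.67 ± 0.23, adjusted p = 0.15) and the proximal join of TRAJ39 (-1.06 ± 0.40, adjusted p = 0.19). Both central joins were lower and the distal join of TRAJ12 higher in CD4SP in 6 of 6 mice by observed over expected reads, and the distal join of TRAJ31 was lower in 6 of 6. The proximal joins of the 5′ segments entered only with the minimum of 3 expected reads, where 0 of 108 passed and 15 had an unadjusted p under 0.05. Observed over expected reads of the proximal join were then 16.9 in CD4SP and 15.1 in CD8SP at TRAJ57 (log2 difference 0.18 ± 0.05 SE, edgeR adjusted p = 0.30). At TRAJ58 they were 15.6 and 12.6 (0.29 ± 0.08 SE, edgeR adjusted p = 0.18), and both joins were higher in CD4SP in 6 of 6 mice. Central and proximal joins of a segment share its total, so these and the lower central joins of TRAJ57 and TRAJ58 are not separate observations.

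No TRAJ segment passed the test between knockout and WT mice in either lineage. The comparison asks whether the knockout altered the receptors that thymocytes carry through selection. In CD4SP, 0 of 41 segments were called (2 had an unadjusted p under 0.05), where 1.6% of all segments were, TRAJ18 among them. The fitted log2 fold changes of knockout over WT lay between -0.28 and 0.13, with a median of -0.01 for these segments and for all 125. In CD8SP, 0 of 41 were called, as were 0% of all segments, and 1 had an unadjusted p under 0.05. Fold changes there lay between -0.20 and 0.17. All these p values come from edgeR's quasi-likelihood test with the replicate number as a block, and with mice as the only replicates they rest on 3 per genotype.

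TRAJ23 had the smallest p in CD4SP. It took 5.62%, 5.97% and 5.93% of reads in the 3 WT libraries and 5.41%, 5.41% and 4.84% in the 3 knockout libraries, so the groups did not overlap, with a log2 fold change of -0.16 ± 0.06 SE and an adjusted p of 0.17. TRAJ47 took 0.75%, 0.68% and 0.71% in WT and 0.53%, 0.63% and 0.60% in the knockout, also without overlap (-0.28 ± 0.13 SE, adjusted p = 0.51). TRAJ57 (-0.22 ± 0.12), TRAJ56 (-0.18 ± 0.11) and TRAJ27 (-0.10 ± 0.06) followed, with adjusted p values of 0.79 to 0.94 by the same edgeR test. In CD8SP the smallest p was that of TRAJ32, with 1.43%, 1.62% and 1.45% in WT and 1.27%, 1.40% and 1.26% in the knockout, where the groups did not overlap (-0.20 ± 0.10 SE, adjusted p = 0.80). TRAJ7 (0.15 ± 0.08), TRAJ56 (-0.19 ± 0.11), TRAJ6 (0.14 ± 0.09) and TRAJ47 (-0.16 ± 0.10) came next.

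Genotype effects were not shown to differ between CD4SP and CD8SP cells for any segment. By the interaction test in edgeR 0 of 41 segments passed, 0 had an unadjusted p under 0.05, and 0% of all segments were called. The smallest p values were those of TRAJ16 (difference 0.25 ± 0.14 SE), TRAJ35 (-0.31 ± 0.20), TRAJ21 (0.11 ± 0.08), TRAJ27 (-0.14 ± 0.10) and TRAJ33 (-0.10 ± 0.07), all with an adjusted p of 0.97. Counts were simulated with these library sizes, but with a fixed spread for all TRAV and TRAJ segments that was not estimated from the data. In them edgeR recovered 1 of 8 interaction changes of 1.25-fold and 13 of 18 of 2-fold, so small differences could pass unseen.

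The mean TRAJ number in CD4SP was 26.9, 26.5 and 27.0 in the WT libraries and 26.8, 26.7 and 26.2 in the knockout libraries, which overlap, with a knockout minus WT difference of -0.25 ± 0.55 (SD, n = 3 pairs). In CD8SP it was 26.6, 26.6 and 26.3 in WT and 26.5, 26.4 and 26.0 in the knockout, lower in 3 of 3 pairs, with a difference of -0.21 ± 0.12 and overlapping groups. In CD4SP the middle stretch held 51.1%, 51.3% and 51.5% of the members' reads in WT and 50.6%, 50.6% and 50.1% in the knockout, without overlap, lower in 3 of 3 pairs with a difference of -0.84 ± 0.44 points (SD). The 3′ stretch held 33.5%, 34.2% and 32.8% in WT and 34.0%, 34.4% and 35.8% in the knockout, which overlap, higher in 3 of 3 pairs with a difference of 1.23 ± 1.49 points. No test was planned for these sums. Pairing differed between genotypes at 0 of 73 joins (edgeR's quasi-likelihood test; 2 had an unadjusted p under 0.05, and 0% of all joins were called). The smallest p values were those of the distal joins of TRAJ22 (0.52 ± 0.17) and TRAJ15 (-0.46 ± 0.34) and the proximal joins of TRAJ12 (3.15 ± 1.26), TRAJ40 (0.44 ± 0.22) and TRAJ26 (1.14 ± 0.63), each with an adjusted p of 1 (log2 difference ± SE).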

How the data were processed

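Alpha receptor clonotypes of 12 libraries were used. Libraries were made from thymocyte RNA with a SMARTer kit for mouse TCR alpha and beta and read on a MiSeq, and clonotypes were assembled with MiXCR, per the labels. Software versions and filters are not given in the sources used here. Coordinates are on mm10, per the submitters' processing notes. Each deposited clonotype has a count of reads, per the file headers, and the deposited fraction is each count over the file's total and served only as a check. The files hold no molecule counts, so amplification was not removed.

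Members and lists were chosen with earlier results of these data known. Productive reads were summed per segment by best hit (no J hit was tied, while 30.4% to 44.2% of reads had a tied V) and tested in edgeR 4.0.16 (R 4.3.3) by its quasi-likelihood test, with productive alpha reads as library size, filterByExpr and Benjamini-Hochberg adjustment over all segments at 0.05. CD4SP and CD8SP libraries of the same genotype and number were taken as 1 mouse, which the labels do not state, and the mouse was a block in comparisons of the lineages. Genotype contrasts were blocked by replicate number, since mice were described as pairs. Deviations of same-numbered WT and knockout libraries over 41 segments correlated at -0.02, -0.18 and -0.41 in CD4SP and at 0.24, 0.06 and 0.23 in CD8SP, so the data do not bear the pairs out. For CD4SP with CD8SP of the same number they were 0.26, -0.05 and -0.39 in WT and 0.54, 0.20 and 0.35 in the knockout, so the assumed mouse is not borne out in WT. P-values of the segment tests refer to the spread between these mice, estimated jointly over segments. Those of the first-codon and pairing tests need not measure that spread alone. The central join of TRAJ57, for instance, differed between lineages by -0.20 ± 0.03 SE, with an unadjusted p of 0.0026 (edgeR's quasi-likelihood test). Replicates of a group differed by more than counting noise, with chi-square over its degrees of freedom from 1.96 to 4.00.

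For pairing, expected reads are the product of a library's zone total and segment total over its total. Named segments follow a rule: the 5 most and least used, up to 10 largest changes per direction with a mean share of at least 0.5%, the 5 of smallest p where fewer passed, up to 6 joins per zone and direction, and TRAJ33. Alternatives were DESeq2 1.42.0, TMM, other filters and units, and leaving out replicates. Simulated counts covered TRAV and TRAJ segments, with a fixed spread not estimated from the data and no difference between mice. On them the lineage test recovered 9 of 11 segments changed 1.25-fold and 9 of 9 changed 2-fold. For genotype it recovered 6 of 11 and 14 of 15 in CD4SP and 5 of 8 and 14 of 16 in CD8SP.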

Additional observations from a re-analysis of the deposited data

How the results depend on the processing

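Each comparison was repeated under every alternative, one choice at a time. The lineage comparison gave 30 to 35 called segments over all of them against 34, with no direction reversed among the segments named. TMM, DESeq2, member reads as library size and counting each clonotype once each lost TRAJ12, TRAJ2 and TRAJ4 and gained TRAJ23, TRAJ53 and TRAJ56, so these 6 depend on the library size or unit. With 1 replicate left out, TRAJ12, TRAJ17, TRAJ2 or TRAJ4 were lost in several refits. Without the block by mouse 32 were called. In the genotype contrasts and their difference 0 segments were called with the replicate block, without the replicate block, and under every other setting run. Joins away from independence numbered 38, but 20 with a minimum of 30 expected reads (47 joins tested), 20 with each clonotype counted once (55 tested) and 66 with a minimum of 3 (108 tested). The minimums change how many joins enter. With clonotypes counted once 0 joins were above and 20 below expectation, against 12 and 26. Fewer joins then entered, with 14 proximal and 0 distal ones tested against 23 and 9. A join left out in this way is not shown to be at expectation. Of the same 41 central joins 0 were above and 8 below, against 5 and 10, and the cause was not tested. The excess of proximal joins at 5′ segments is called only at minimums of 10 or 3, since those segments have few expected reads. One join, the central join of TRAJ57, differed between lineages without clonotypes of 1 read (1 of 65). The mean TRAJ number, CD4SP minus CD8SP, was 0.28 and turned to -0.56 with TRAJ18 and TRAJ45 included, and it was 0.87 without tied hits; the cause was not tested. The knockout minus WT difference was -0.21 in CD8SP and -0.079 without tied hits, and in CD4SP it ran from -0.48 to 0.05 with 1 replicate left out, the latter without replicate 3 of either genotype. First codons kept differently numbered 16 in reads and 7 in clonotypes. Among refits of single named segments and joins, 789 kept direction and side of the threshold, 18 lost it and 1 gained it. Depth limits single joins of proximal and distal TRAV, which had 519 to 774 and 101 to 445 reads per library.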
